A study of Bos taurus with 12 samples.

Results

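The genes described here are those of the transforming growth factor beta (TGF-beta), bone morphogenetic protein (BMP), Nodal and activin pathways in the bovine expanded blastocyst. They were taken by gene symbol from a fixed list of 41 members, of which 40 were found among the 32637 genes of the count table. TDGF1, the remaining symbol, is a synonym of CRIPTO in the RefSeq annotation, and CRIPTO is given beside the members without being counted among them. All 40 members were autosomal genes with a RefSeq entry.

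RNA-seq compared 6 female with 5 male samples of in vitro produced bovine (Bos taurus) embryos, with no other treatment. The embryos came from slaughterhouse oocytes fertilized with the semen of 2 bulls used in rotation, and were cut into 2 pieces, 1 for sexing by PCR and 1 for sequencing. Each sample, called a replicate below, was a pool of such pieces from 2 expanded blastocysts of the same sex, each piece holding both inner cell mass and trophectoderm, so that a value averages 2 embryos. A sample of 4-cell embryos sequenced with long reads was not used here. The count per library summed to 6664112 to 16162985 in females and to 9942952 to 21392764 in males.

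The labels were checked against marker genes. XIST, the RNA that silences one X chromosome, ranged from 52.3 to 261 CPM (a gene's count relative to the scaled library total) in females and from 0.745 to 3.97 CPM in males. Of 10 trophectoderm markers, 10 had more than 3 counts in every library, as did 6 of 7 markers of the inner cell mass (ICM, with CRIPTO for TDGF1), 5 of 7 hypoblast markers and 1 of 7 cumulus markers. Male replicate 5 stood apart from the other libraries, with 14937 genes counted at least once against 16985 to 18550 elsewhere. It was the highest of the 11 libraries for 24.9% and the lowest for 26.8% of all tested genes.

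Ligands of this superfamily are secreted dimers that bring together a type II and a type I receptor serine/threonine kinase. Activins, Nodal and TGF-beta signal mainly through SMAD2 and SMAD3, BMPs through SMAD1, SMAD5 and SMAD9, and both sets join SMAD4 to enter the nucleus. In the early embryo the activin and Nodal branch is known for its part in the pluripotent epiblast, and the BMP branch for inducing the ID genes and for its part in extraembryonic lineages.

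Of the 40 members, 33 had enough counts to be tested between the sexes. CPM values were scaled with TMM factors, which correct for differences in library composition. A call required an adjusted p (the false discovery rate, FDR) below 0.1 together with a change of more than 1.5-fold in the quasi-likelihood test of edgeR, adjusted over all 12802 tested genes. No member was called, 0 of 33, where the same test called 1.91% of all tested genes, 0.414% as higher in males and 1.5% as higher in females. An unadjusted p under 0.05 in edgeR was found for 4 members, INHBA and FST among the activin genes, the type II receptor TGFBR2 and the inhibitor SMAD7. That is 12.1% of the tested members beside 13.2% of all tested genes. DESeq2 with the same design, an alternative tool, called 3 members, FST, INHBA and TGFBR2, and 4.17% of the genes to which it gave an adjusted p. The median log2 fold change, male over female, was -0.02 over the members and 0.01 over all tested genes, with 16 members above 0 and 17 below. In no tested member did all libraries of one sex lie above all libraries of the other, a separation seen with females above in 1.88% and with males above in 1.43% of all tested genes.

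**Figure D1:**
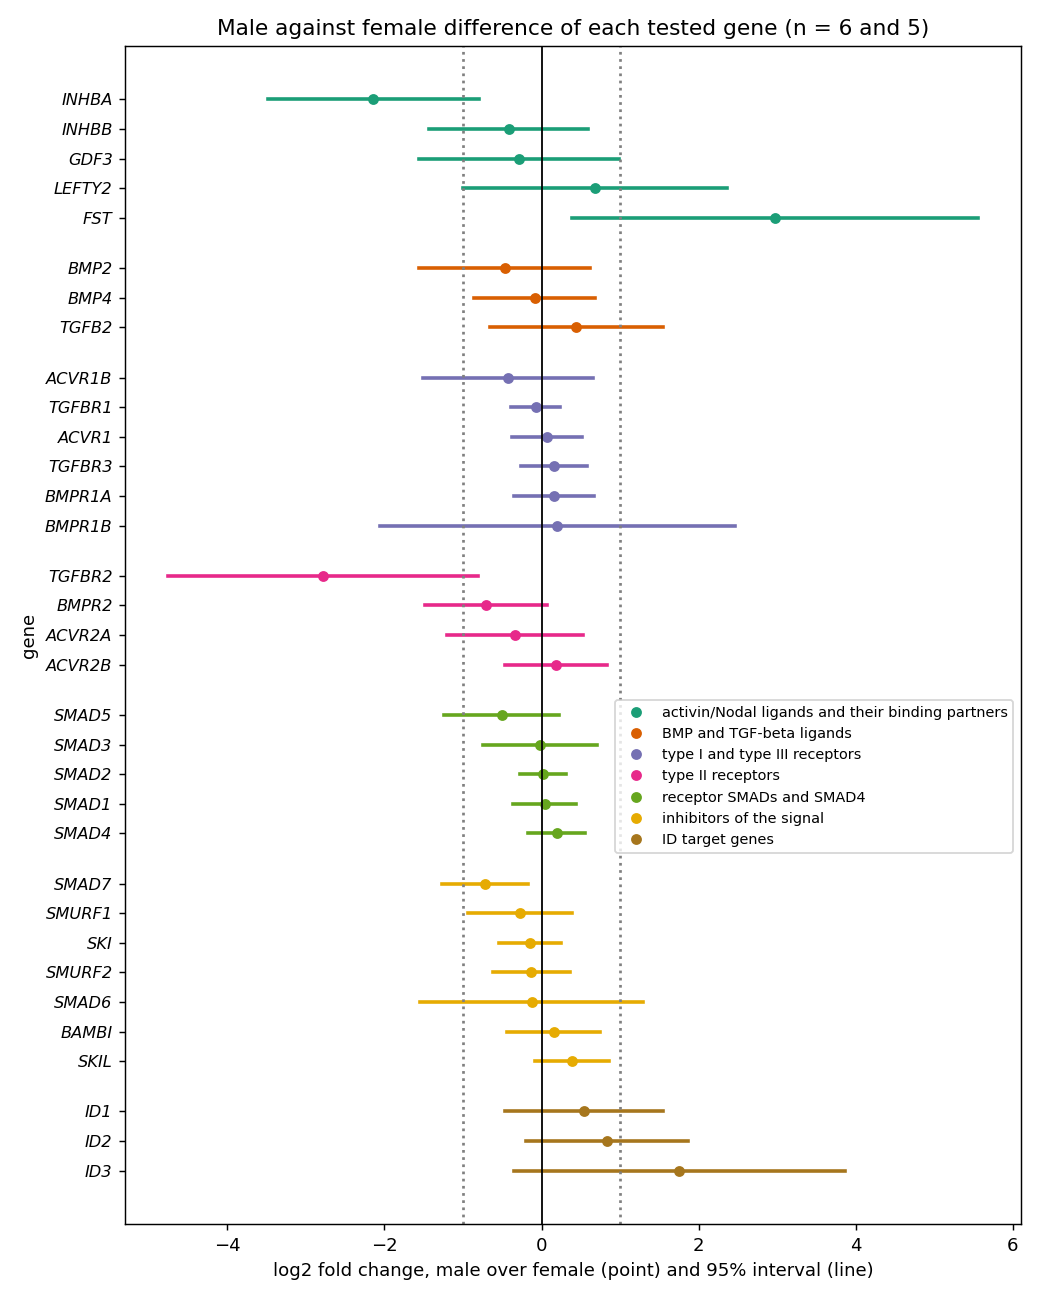
The horizontal axis gives the log2 fold change of each of the 33 tested members (point, male over female) with its 95% interval (line), for 6 female and 5 male libraries, grouped by role (color) on the vertical axis. Dotted lines mark a 2-fold difference either way, and the intervals of INHBA, TGFBR2, SMAD7 and FST exclude 0 before adjustment over all genes.

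The precision differed widely between members. The 95% interval of the fold change lay within 2-fold either way for 15 of 33 members (45.5%), against 53.6% of all tested genes, and within 1.5-fold either way for 7 members. These 7 were SMAD2, TGFBR1, SMAD4, SKI, SMAD1, TGFBR3 and ACVR1. At the other end, the intervals of FST, BMPR1B, ID3 and TGFBR2 each spanned more than 3.9 on the log2 scale, and for these genes only very large differences could have been resolved.

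INHBA, on chromosome 4 from 79279914 to 79304488 (ARS-UCD2.0), encodes the beta A subunit from which activin A is built. In females it ranged from 0.801 to 2.59 CPM with a median of 1.77 CPM, from 8 to 34 counts. The males had 0.910, 1.48, 0.129, 0.0795 and 0.242 CPM in replicates 1 to 5, or 11, 14, 2, 1 and 5 counts. Male replicates 3, 4 and 5 lay below every female, while male replicates 1 and 2 lay within the female range. The mean was 1.68 ± 0.654 CPM over the females (SD, n = 6) and 0.568 ± 0.609 CPM over the males (SD, n = 5), a log2 fold change of -2.14 (standard error, SE, 0.62, 95% interval -3.48 to -0.80, adjusted p = 0.144 in the edgeR quasi-likelihood test, Benjamini-Hochberg adjusted). DESeq2 gave -2.17 with an adjusted p of 0.0334. Within the 3 library numbers, the first number of each library's name, the male mean of log2 CPM minus the female mean was -0.90, -2.39 and -2.18. Library number 2 holds 1 male library, replicate 3, so its value here and below rests on that pool.

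FST, on chromosome 20 from 25580143 to 25586639, encodes follistatin, a secreted protein that binds activin and blocks it. It ranged from 0.0630 to 1.45 CPM in females, with a median of 0.613 CPM. The males had 0.0827, 23.0, 1.09, 1.35 and 2.23 CPM in replicates 1 to 5. Male replicate 2, with 218 counts, stood far above the other 10 libraries, whose counts ran from 1 to 46. The log2 fold change was 2.97 (SE 1.19, 95% interval 0.39 to 5.56, adjusted p = 0.301 from edgeR). Without male replicate 2 it was 0.85 with an adjusted p of 0.822, and DESeq2, which called FST over all libraries with an adjusted p of 0.0254, then gave 0.85 with an adjusted p of 0.797. DESeq2 also lost that call without male replicate 5, at a log2 fold change of 2.90 and an adjusted p of 0.190, in a fit that called 5.54% of genes. Within library numbers 1, 2 and 3 the difference in mean log2 CPM was 1.91, -0.01 and 2.44. Much of the fitted size of the FST difference rests on 1 pool, male replicate 2, which is in library number 1. The 2.44 of library number 3 sets males with 17 and 46 counts against females with 4 and 1.

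TGFBR2, on chromosome 22 from 5091580 to 5183754, is the type II receptor that binds TGF-beta itself. Females ranged from 0.651 to 2.74 CPM with a median of 1.18 CPM, from 6 to 36 counts. The males had 0.248, 0.106, 0.901, 0 and 0 CPM in replicates 1 to 5, where 3 counts, taken as the limit that a count of 0 allows, are 0.238 CPM in male replicate 4 and 0.145 CPM in male replicate 5. Male replicate 3, with 14 counts, was the one male library within the female range. The mean was 1.34 ± 0.717 CPM over the females (SD, n = 6) and 0.251 ± 0.377 CPM over the males (SD, n = 5), with a log2 fold change of -2.78 (SE 0.91, 95% interval -4.76 to -0.81, adjusted p = 0.205 from edgeR). It was -4.26 without male replicate 3, still without a call, and DESeq2 over all libraries gave -3.03 with an adjusted p of 0.0388. Without male replicate 2, DESeq2 gave a log2 fold change of nearly the same size, -2.85, with an adjusted p of 0.113, and INHBA was the only member called, at 0.0319, beside 3.35% of all genes with an adjusted p. Without male replicate 5, DESeq2 still called TGFBR2, at a log2 fold change of -2.45 and an adjusted p of 0.0788. That fit also called INHBA, at an adjusted p of 0.0458, and 5.54% of genes. The difference in mean log2 CPM of TGFBR2 was -2.23, -0.28 and -3.10 within library numbers 1, 2 and 3.

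SMAD7, on chromosome 24 from 48598698 to 48629007, encodes an inhibitory SMAD that is itself induced by the pathway and blocks type I receptors. It was counted more deeply than the 3 genes above, with 58 to 260 counts per library. Females ranged from 13.8 to 19.8 CPM with a median of 15.1 CPM, and the males had 15.6, 6.13, 9.72, 8.82 and 7.95 CPM in replicates 1 to 5. Every male but replicate 1 lay below every female. The mean was 15.8 ± 2.13 CPM over the females (SD, n = 6) and 9.63 ± 3.57 CPM over the males (SD, n = 5), a log2 fold change of -0.72 (SE 0.25, 95% interval -1.27 to -0.17, adjusted p = 0.236 from edgeR). The difference of mean log2 CPM was -0.75, -0.69 and -0.81 within library numbers 1, 2 and 3. DESeq2 with sex alone, without the library number, called SMAD7, with an adjusted p of 0.0912, and 4.62% of all genes with an adjusted p.

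**Figure D2:**
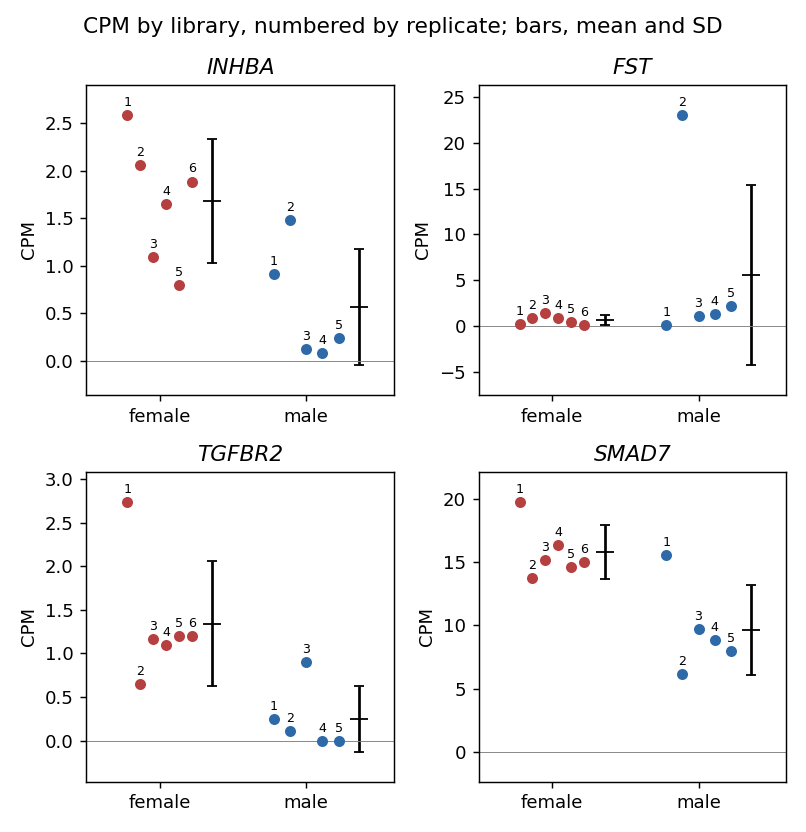
Each point is the CPM of 1 library (vertical axis, linear), numbered by replicate, for the 4 members with an unadjusted p under 0.05, and the bar gives the mean and SD of each sex. INHBA, TGFBR2 and SMAD7 each have 1 or 2 males inside the female range, and the FST mean of the males is set by male replicate 2 at 23.0 CPM.

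The size of these 4 differences was followed in fits that left out 1 library. None of the 4 changed sign or was called in any of the 11 fits. INHBA stayed between -2.46 and -1.82, TGFBR2 between -4.26 and -2.29 and SMAD7 between -0.95 and -0.57, while FST ran from 0.85 to 3.82. Female replicate 1 was the highest library for INHBA, TGFBR2 and SMAD7, and also for INHBB, TGFBR3, BMPR2 and SMURF2. That is 7 of the 33 members, beside 7.93% of all tested genes. It was the lowest for 2, SMAD2 and SMAD3, beside 7.37%. Without female replicate 1, INHBA was at -2.36, TGFBR2 at -2.31 and SMAD7 at -0.66.

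**Figure D3:**
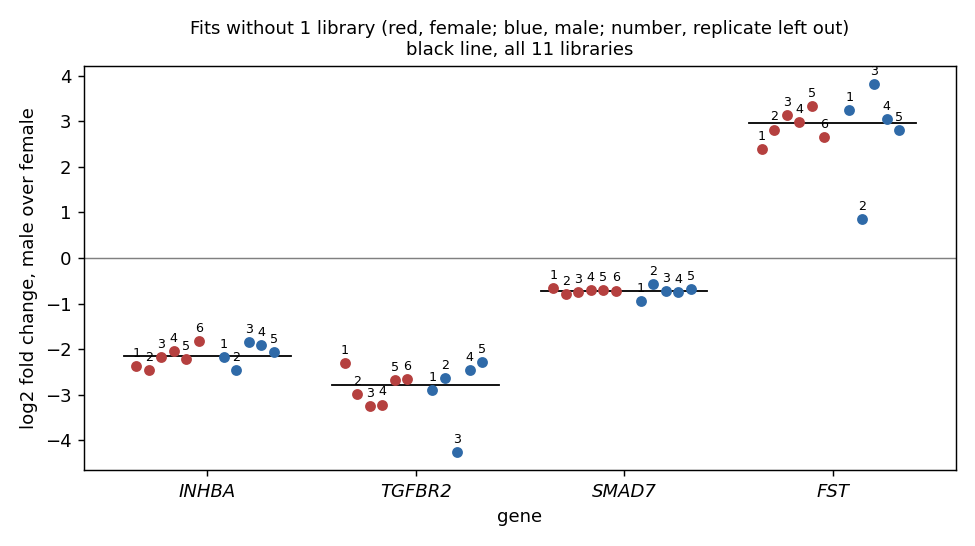
The vertical axis gives the log2 fold change (male over female) of INHBA, TGFBR2, SMAD7 and FST in fits without 1 library, each point numbered by the female (red) or male (blue) replicate left out, with a line at the value from all 11 libraries. The points of SMAD7 stay close together, and the point of FST without male replicate 2 stands apart at 0.85.

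The other genes of the activin and Nodal branch were INHBB, GDF3, LEFTY2, NODAL and CRIPTO. INHBB, the beta B subunit of activin B, was at 1.17 ± 0.313 CPM over the females (SD, n = 6) and 0.896 ± 0.242 CPM over the males (SD, n = 5), with a log2 fold change of -0.42 (95% interval -1.43 to 0.59). Unlike INHBA it was even across libraries, from 0.581 to 1.599 CPM. GDF3, a ligand of the epiblast, had nearly the same mean in both sexes, 9.01 ± 3.27 CPM over the females (SD, n = 6) and 9.15 ± 9.50 CPM over the males (SD, n = 5). Its male libraries nevertheless spread over 4.55, 24.5, 12.1, 2.94 and 1.65 CPM, against 4.34 to 11.96 CPM in females. LEFTY2, a secreted antagonist of Nodal and a target of its signal, lay between 0.1001 and 1.95 CPM in females and between 0.194 and 2.54 CPM in males.

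NODAL itself had too few counts to enter the edgeR fit. It had 0 counts in 6 of the 11 libraries and more than 3 counts in 4. In males it had 0, 29, 0, 6 and 31 counts in replicates 1 to 5, or up to 3.06 CPM, and in females at most 4 counts, or 0.434 CPM. The sexes overlapped at 0 (two-sided exact permutation test of mean log2 CPM between the sexes, p = 0.119, adjusted over the 7 members outside the edgeR fit to 0.614). DESeq2 gave a log2 fold change of 3.43 (SE 1.601, unadjusted p = 0.0324, adjusted p = 0.287), without a call. CRIPTO, the co-receptor through which Nodal binds its receptors, was at 0.0762, 10.2, 0.727, 3.71, 0 and 2.33 CPM in female replicates 1 to 6 and 3.39, 52.6, 0.0644, 32.6 and 7.95 CPM in male replicates 1 to 5. Its log2 fold change of 2.41 had a 95% interval from -0.77 to 5.58 (adjusted p = 0.521 from edgeR).

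Male replicate 2 held the highest level of NODAL, CRIPTO, FST and GDF3 among the 11 libraries, and also of ID2, BMP2 and SKI. Of the 33 tested members it was the highest for 5, FST, GDF3, BMP2, SKI and ID2. It was the lowest for 4, TGFB2, BMPR1B, ACVR2B and SMAD7. Over all tested genes it was the highest for 7.05% and the lowest for 8.99%. Of the 7 ICM markers, NANOG and CRIPTO were at their highest in male replicate 2. The other 5 lay within the range of the other libraries. NANOG was at 292 CPM there and between 9.31 and 179 CPM in the other libraries. The summed ICM markers of male replicate 2 were at 844 CPM. That lay below the sums of the other males, 896 to 1079 CPM, and within the female range of 562 to 981 CPM. Of the 7 hypoblast markers, 3 were also at their highest in male replicate 2, GATA4, HNF4A and FOXA2, the last with 6 counts. The other 4 lay within the range of the other libraries. The hypoblast sum of male replicate 2, 465 CPM, lay within the female range of 228 to 621 CPM. In such pools, fewer cells of a type and less RNA per cell cannot be told apart. The part of ICM or hypoblast content in these values was not tested.

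INHBA and FST are also known from granulosa and cumulus cells, which surround the oocyte. Of the 7 cumulus markers, AMH and FOXL2 never exceeded 3 counts, and INHA was at 0 counts in 9 of 11 libraries. The sum of the list, mostly FSHR, ranged from 7.19 to 32.7 CPM in females and from 5.38 to 29.5 CPM in males. The highest male sum was that of male replicate 2, and the other males had 5.38 to 16.6 CPM. HAS2 and TNFAIP6 had their highest values, 6.45 and 4.76 CPM, in male replicate 2, the library with the most FST, while CYP19A1 had its lowest value there, 0.211 CPM, and INHA was at 0. Female replicate 1, the library with the most INHBA, had the highest sum, 32.7 CPM. Of the 7 markers, 3 were at their highest in it, FSHR at 27.3 CPM, INHA at 4 counts and FOXL2 at 1 count. The other 4 lay within the range of the other libraries. The part of residual cumulus cells in the INHBA and FST differences was not tested.

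Among the BMP and TGF-beta ligands, BMP2, BMP4 and TGFB2 were tested and none was called, with log2 fold changes of -0.47, -0.09 and 0.45. BMP4, which patterns the early embryo, was at 4.50 ± 0.774 CPM over the females (SD, n = 6) and 4.43 ± 3.28 CPM over the males (SD, n = 5). Male replicate 3 had 10.1 CPM of BMP4 and the other males 1.74 to 4.05 CPM. BMP2 was at 3.68 ± 1.27 CPM over the females (SD, n = 6) and 2.71 ± 1.84 CPM over the males (SD, n = 5), and TGFB2 at 3.74 ± 1.86 and 4.57 ± 2.63 CPM in the same order. Both extremes of TGFB2 were in male libraries with the same library number, replicate 1 at 6.95 CPM and replicate 2 at 0.951 CPM.

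The other 4 ligands were near the limit of detection. BMP6 had more than 3 counts in 2 libraries, with at most 13 counts, and BMP7 in 4 libraries, with at most 29. TGFB3 never exceeded 2 counts and was at 0 in 6 libraries. TGFB1 was counted in every library, at 1 to 11 counts, or 0.0762 to 1.51 CPM. None of the 4 differed between the sexes beyond the spread of the libraries in the same two-sided exact permutation test, with unadjusted p from 0.242 for TGFB3 to 0.671 for TGFB1. DESeq2 called neither BMP7 nor TGFB1 and gave BMP6 and TGFB3 no adjusted p, with log2 fold changes of 3.21 for BMP6 (SE 1.64), -1.75 for BMP7 (SE 1.11), -0.37 for TGFB1 (SE 0.79) and -1.16 for TGFB3 (SE 2.66). At these counts only large differences could have been detected.

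Of the type I and type III receptors, TGFBR1, BMPR1A, ACVR1 and TGFBR3 had more than 3 counts in every library and an SD of log2 CPM within a sex of 0.18 to 0.51, while ACVR1B, BMPR1B and ACVR1C were uneven. TGFBR1, the type I receptor for TGF-beta, was at 73.0 ± 6.05 CPM over the females (SD, n = 6) and 68.3 ± 11.9 CPM over the males (SD, n = 5), with a log2 fold change of -0.08 (95% interval -0.39 to 0.24). The highest library held 1.47 times the level of the lowest. BMPR1A, a type I receptor for BMPs, was at 40.5 ± 12.7 CPM over the females (SD, n = 6) and 43.5 ± 16.2 CPM over the males (SD, n = 5), and ACVR1, which serves BMPs as well, at 17.9 ± 3.42 and 18.3 ± 4.16 CPM in the same order. TGFBR3, the co-receptor betaglycan that presents TGF-beta2 and inhibin, was at 37.2 ± 8.85 CPM over the females (SD, n = 6) and 41.3 ± 6.39 CPM over the males (SD, n = 5).

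ACVR1B, the main type I receptor for activin and Nodal, was at 4.95 ± 1.64 CPM over the females (SD, n = 6) and 4.26 ± 3.61 CPM over the males (SD, n = 5). The males had 5.05, 4.33, 9.78, 1.67 and 0.485 CPM, so that male replicates 4 and 5 lay below every female, whose lowest was 2.97 CPM. ACVR1C, an alternative receptor for Nodal, was at 0 in 6 libraries and reached 18 counts in 1 female. BMPR1B, the other BMP type I receptor, varied most among the receptors, from 0 counts in male replicate 2 to 5.09 CPM in female replicate 4 and in male replicate 5.

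The 3 type II receptors beside TGFBR2 were each measured in every library. ACVR2A, which binds activin, Nodal and several BMPs, ranged from 10.8 to 25.1 CPM in females, and the males had 22.3, 17.1, 22.8, 12.6 and 3.68 CPM. BMPR2, the type II receptor for BMPs, ranged from 12.1 to 28.9 CPM in females, and the males had 15.1, 19.4, 19.95, 11.3 and 2.86 CPM. In both, male replicate 5 was the lowest library by a wide margin. The log2 fold change of BMPR2, -0.71 (95% interval -1.49 to 0.07, adjusted p = 0.428 from edgeR), was -0.44 without that library, and that of ACVR2A went from -0.34 to 0.01. ACVR2B, which binds activin and related ligands, was at 5.70 ± 1.30 CPM over the females (SD, n = 6) and 6.82 ± 2.44 CPM over the males (SD, n = 5) and had its highest value, 9.59 CPM, in male replicate 5.

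Male replicate 5 was the lowest of the 11 libraries for 10 of the 33 members, or INHBB, GDF3, BMP4, TGFBR1, ACVR1, ACVR1B, BMPR1A, ACVR2A, BMPR2 and SMAD5. Of the 9 receptors tested besides TGFBR2, 6 are among these 10. For TGFBR1 the margin was narrow, 59.99 CPM against 60.02 CPM in male replicate 2. It was the highest for 5 members, ACVR2B, SMAD1, SMAD4, BAMBI and ID3. These shares are to be read beside the 26.8% and 24.9% of all tested genes given above. Its trophectoderm markers summed to 36145 CPM, against 7879 to 23154 CPM in the other libraries, with 4 of the 10 markers at their highest there, CDX2, KRT8, KRT18 and DAB2. KRT8 alone gave 20142 CPM of that sum, and the other 6 markers, such as GATA3 at 173 CPM and PTGS2 at 1090 CPM, lay within the range of the other libraries. More of the 10 markers, 5, were at their highest in female replicate 1, GATA2, GATA3, TFAP2A, TFAP2C and PTGS2. The trophectoderm sum of female replicate 1 was 23154 CPM. The hypoblast markers of male replicate 5 summed to 208 CPM, against 228 to 621 CPM in the other libraries. PDGFRA and COL4A1 were at their lowest in male replicate 5, and the other 5 of 7 lay within the range of the other libraries. Of the 7 ICM markers, POU5F1 and LIN28A were at their highest and KLF17 and SPIC at their lowest in it. The part of cell composition in the receptor levels of this library was not tested.

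**Figure D4:**
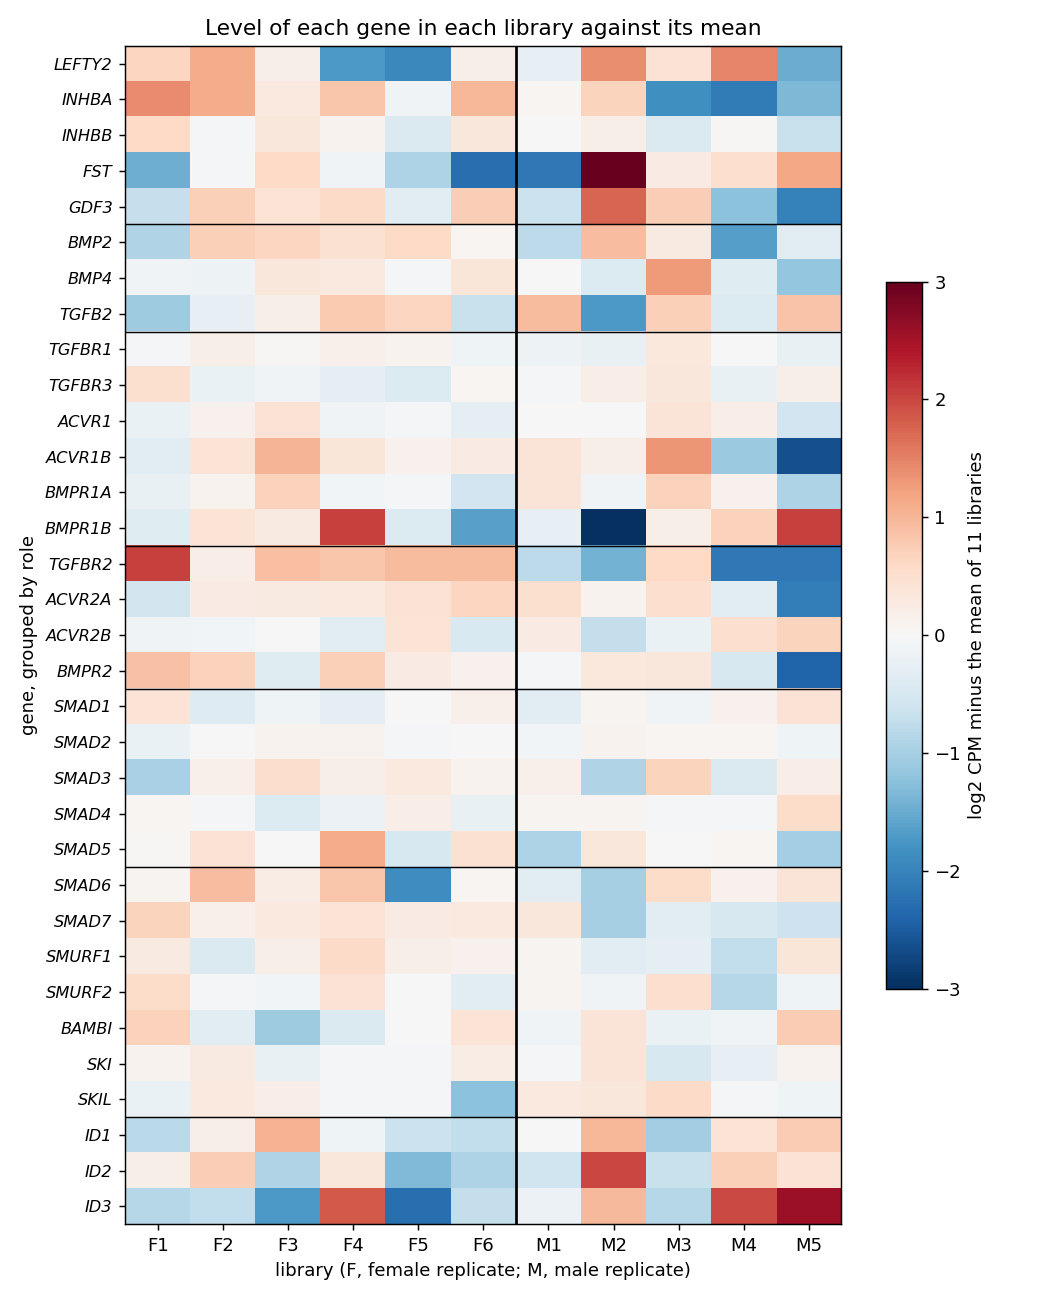
Columns are the 6 female (F) and 5 male (M) libraries and rows the 33 tested members, grouped by role, with the color giving log2 CPM minus the mean of that gene over the 11 libraries, saturating at 3 either way. Rows of SMAD1, SMAD2, SMAD4, TGFBR1 and SKI are pale throughout, while FST, ID3 and BMPR1B change color from library to library, with FST darkest in M2 and several receptors darkest blue in M5.

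The receptor-activated SMADs and SMAD4 were the steadiest role group. SMAD2, which carries the activin, Nodal and TGF-beta signal, was at 64.0 ± 4.61 CPM over the females (SD, n = 6) and 64.0 ± 4.57 CPM over the males (SD, n = 5). The females ranged from 56.0 to 68.6 CPM and the males had 60.2, 68.6, 67.0, 66.1 and 58.1 CPM. Its log2 fold change was 0.02 (95% interval -0.27 to 0.31), and its SD of log2 CPM within a sex, 0.11, was smaller than that of all but 0.125% of the tested genes. SMAD4, the shared partner, was at 42.0 ± 6.31 CPM over the females (SD, n = 6) and 49.2 ± 9.49 CPM over the males (SD, n = 5), and SMAD1, a BMP transducer, at 39.4 ± 8.29 and 41.6 ± 8.33 CPM in the same order. SMAD3, the partner of SMAD2, was at 4.85 ± 1.44 CPM over the females (SD, n = 6) and 4.57 ± 1.86 CPM over the males (SD, n = 5).

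SMAD5, the second BMP transducer, was at 14.3 ± 5.67 CPM over the females (SD, n = 6) and 9.58 ± 3.80 CPM over the males (SD, n = 5). Its log2 fold change of -0.51 (95% interval -1.24 to 0.22, adjusted p = 0.567 from edgeR) did not exceed the spread between libraries, with differences of -0.54, -0.58 and -0.47 within library numbers 1, 2 and 3. SMAD9, the third BMP transducer, had more than 3 counts in 3 libraries, 12 and 15 in female replicates 2 and 3 and 20 in male replicate 2, and was not tested in the fit.

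Of the 7 inhibitors of the signal, all were tested, and apart from SMAD7 none had an unadjusted p under 0.05 in edgeR. SKI and SKIL, nuclear corepressors that bind SMADs, had log2 fold changes of -0.15 (95% interval -0.54 to 0.25) and 0.39 (95% interval -0.09 to 0.86). SMURF1 and SMURF2, ubiquitin ligases that mark SMADs and receptors for degradation, had -0.27 and -0.13. BAMBI, a decoy receptor without a kinase domain, ranged from 6.61 to 22.9 CPM in females and from 12.2 to 23.9 CPM in males. SMAD6, the inhibitory SMAD of the BMP branch, was at 0.974 ± 0.552 CPM over the females (SD, n = 6) and 0.812 ± 0.366 CPM over the males (SD, n = 5). The interval of SMAD6, -1.54 to 1.30, was wide enough to hold the fold change of SMAD7.

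The ID genes encode helix-loop-helix proteins that lack a DNA-binding region and hold back differentiation factors, and are direct targets of BMP SMADs. All 3 had log2 fold changes above 0, of 0.54 for ID1 (95% interval -0.46 to 1.55), 0.83 for ID2 (-0.20 to 1.86) and 1.76 for ID3 (-0.35 to 3.86), and none was called (adjusted p of 0.671, 0.490 and 0.475 from edgeR). These values kept their sign with RLE factors, with TMM factors from autosomal genes, with library totals and without each library in turn, where ID2 had its lowest value, 0.33, without male replicate 2, and ID3 lay between 1.12 and 2.56. Within the library numbers they did not all point one way. The male mean of log2 CPM minus the female mean was 0.83, -1.51 and 1.28 for ID1 in library numbers 1, 2 and 3. It was 0.24, -0.39 and 1.69 for ID2 and 1.19, -0.90 and 3.77 for ID3. In library number 2, which holds 1 male library, replicate 3, all 3 genes were lower in the male. ID2 was at 60.9 ± 33.6 CPM over the females (SD, n = 6), and the males had 43.3, 267, 41.5, 108 and 89.6 CPM. ID3 ranged from 0.500 to 11.1 CPM in females, with a median of 1.67 CPM, and the males had 2.65, 6.02, 1.61, 12.3 and 18.7 CPM. The males reached higher levels of ID2 and ID3 than any female in male replicate 2 for ID2 and in male replicates 4 and 5 for ID3, but male replicates 1 and 3 lay within the female range in both. ID1 ranged from 10.4 to 37.8 CPM in females and the males had 18.5, 37.0, 8.75, 24.3 and 31.0 CPM, with male replicate 3 the lowest of the 11 libraries.

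When edgeR was run on all genes with a count in any library, 4 members were called, FST, ID2 and ID3 higher in males and TGFBR2 higher in females, where this fit called 3.11% of the 23857 genes it tested. Without male replicate 2 the same fit called 0 members and 2.7% of all genes. The log2 fold change of FST went from 2.98 to 0.84 (adjusted p = 0.890), while that of TGFBR2 stayed near its value, -2.69 (adjusted p = 0.162) against -2.88. Without male replicate 5 the fit called the same 4 members and also INHBA, beside 4% of all genes.

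**Figure D5:**
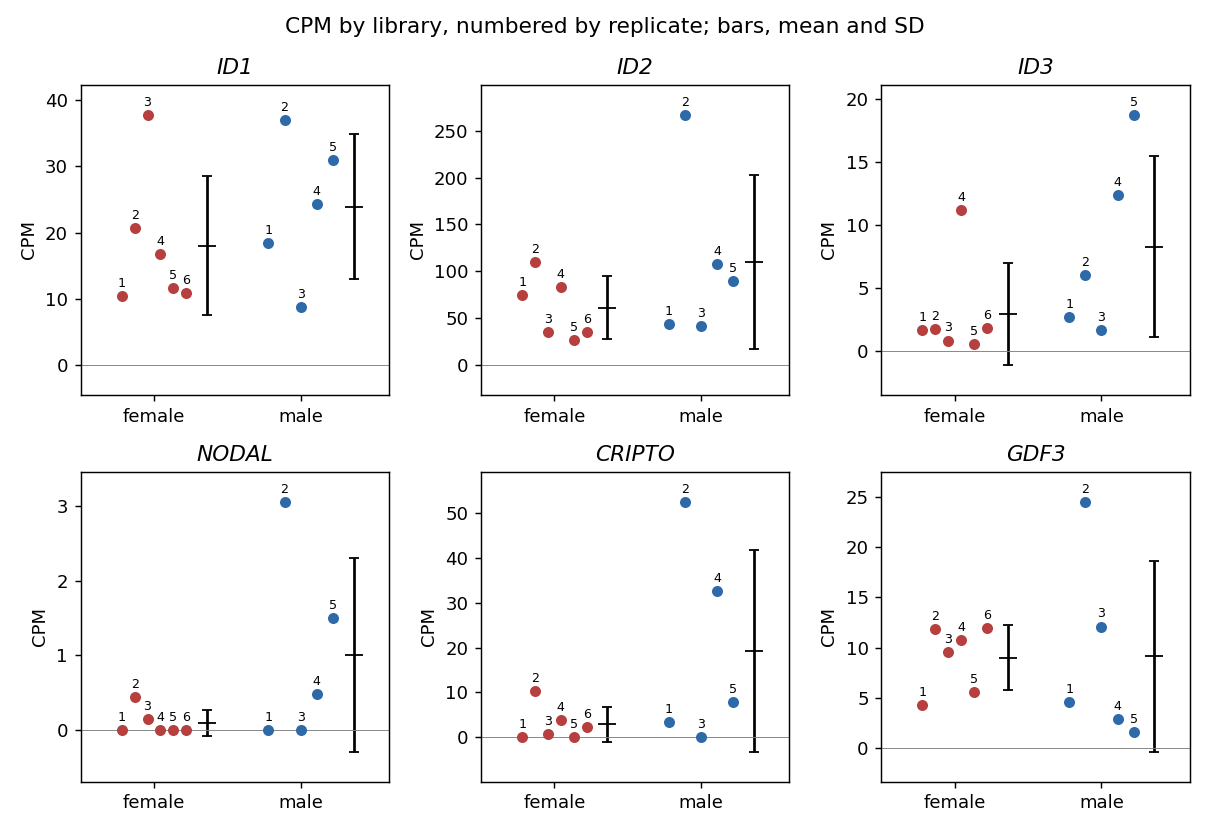
Each point is the CPM of 1 library (vertical axis, linear), numbered by replicate, for ID1, ID2, ID3, NODAL, CRIPTO and GDF3, and the bar gives the mean and SD of each sex. Male replicate 2 is the highest library for ID2, NODAL, CRIPTO and GDF3, and the sexes overlap in all 6 genes.

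The spread of the members was compared between the sexes. The SD of log2 CPM was larger in males for 25 of 33 members, or 75.8%, beside 71.0% of all tested genes. Its median over the members was 0.47 in females and 0.61 in males, and 0.55 in males without replicate 5. Without male replicates 2 and 5 the male median was 0.48. Over all tested genes the medians were 0.39 in females and 0.52 in males. They were 0.38 in males without replicate 5 and 0.35 in males without replicates 2 and 5. Within a sex, FST had the largest SD of log2 CPM, 1.77, followed by BMPR1B at 1.53 and ID3 at 1.42. By role, the median was 1.11 for the activin and Nodal group and 0.29 for the receptor SMADs and SMAD4, beside 0.48 for all tested genes. Low counts add to this spread, so a low-count ligand and a well-counted SMAD are not measured equally well.

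A wider list of pathway genes was read from the same fit. Of 85 further symbols, 81 were in the table and 40 were tested. None of the 19 other ligands and inhibins and neither of the other receptors in the table, ACVRL1 and AMHR2, had enough counts. Of the 40, 1 was called, where the same fit called 1.91% of all tested genes. It was USP9X on the X chromosome (102320124 to 102437088), a deubiquitinase known to act on SMAD4. USP9X ranged from 106 to 159 CPM in females and from 41.5 to 80.0 CPM in males, with no overlap. Every female library lay above every male library in 1.88% of all tested genes. Its mean was 138 ± 23.7 CPM over the females (SD, n = 6) and 62.6 ± 15.3 CPM over the males (SD, n = 5), a log2 fold change of -1.10 (SE 0.13, edgeR adjusted p = 0.00180). All 11 fits that left out 1 library called it. An unadjusted p under 0.05 in edgeR was found for 5 of the 40, beside 13.2% of all tested genes. The log2 fold change was above 0 in 14 of the 40 and below 0 in 26, with a median of -0.12. Over all tested genes it was above 0 in 6470 and below 0 in 6332, with a median of 0.01. XIAP, a ubiquitin ligase that also acts with the BMP receptor complex and the other X-linked gene tested, had a log2 fold change of -0.41 (95% interval -0.92 to 0.09).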

How the data were processed

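RNA from 6 female and 5 male pools was made into SMART-Seq HT PLUS libraries. The authors used fastp 0.20.0 for trimming, STAR 2.7.10b for alignment to ARS-UCD2.0 and featureCounts for counting, and deposited raw counts per gene without normalization. Of 32637 symbols, 30271 matched the RefSeq table of that assembly. Exon lengths were not at hand, so levels of different genes were not ranked.

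Sex and replicate number came from the sample titles. Counts were analysed with edgeR 4.0.16 in R 4.3.3, with filterByExpr by sex, TMM factors and a quasi-likelihood test, male against female. The study used DESeq2 with collection week as a covariate. The labels give no week, and the library number (1 to 3) stood in its place, although it is not known to be the week. Standard errors are the log2 fold change over the square root of the F statistic, and 95% intervals use the moderated degrees of freedom. Log2 CPM used a prior count of 2. Counts of 3 set the limit for a 0, and this limit covers counting error alone, because no molecular identifiers were used. P-values measure the spread between pools. Members under the filter were tested by a two-sided exact permutation test, whose smallest p is 0.00216. The methods were also run on simulated counts, drawn without an effect of library number and without a library that stands apart. No result here rests on that run.

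Alternatives were DESeq2 1.42.0 with and without the library number, no block, other factors and filters, an FDR of 0.05, glmTreat and fits without each library. The members, marker and pathway lists were chosen with earlier results of these data known. Full values are given for members called, with an unadjusted p under 0.05, or called by DESeq2 with the library number, and other pathway genes are named if called or at an unadjusted p under 0.01. ACVRL1, AMHR2 and XIAP, the remaining genes of groups of 2, and DCN, THBS1 and GDF15 were chosen after their values were seen.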

Additional observations from a re-analysis of the deposited data

Results flagged for a closer look

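In 66 sets of libraries, 33 members in each sex, a single library far from the rest of its sex was looked for with Dixon's test on log2 CPM at the 95% level. It was found in 5 sets, where chance alone gives about 3.3. Female replicate 1 was low for ACVR2A, with 10.8 CPM against 19.1 to 25.1 CPM in the other females, and for SMAD3, with 2.21 CPM against 4.78 to 6.54 CPM. Female replicate 5 was low for SMAD6, with 0.1001 CPM against 0.818 to 1.63 CPM, which rests on 1 count. Female replicate 6 was low for SKIL, with 10.9 CPM against 22.5 to 31.6 CPM. Male replicate 5 was high for SMAD4, with 65.7 CPM against 42.5 to 47.7 CPM in the other males.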

How the results depend on the processing

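No member was called by edgeR without each library in turn (0 to 0, in each direction), with no replicate block (0), with a replicate block from the title number (0), with other factors, with the stricter filter, at an FDR of 0.05 or with glmTreat. DESeq2 with the library number called 3 members (1 higher in males, 2 in females), and DESeq2 with sex alone called 1, SMAD7, higher in females. With every gene of at least 1 count, edgeR called 4 (3 higher in males, 1 in females). In fits chosen after seeing the data, DESeq2 called 1 (in females) without male replicate 2, beside 3.35% of all genes. Without male replicate 5 it called 2 (both in females), beside 5.54%. The edgeR fit on every gene with a count called 0 without male replicate 2, beside 2.7% of all genes. Without male replicate 5 that fit called 5 (FST, ID2 and ID3 in males, INHBA and TGFBR2 in females), beside 4% of all genes. The further pathway genes had 1 call in edgeR and in each fit without 1 library, 2 with DESeq2 (THBS1 added), 3 with every gene of at least 1 count (DCN and THBS1 added), and, in the fits chosen later, 4 (GDF15 added) and 3 with that filter without male replicates 2 and 5, and 2 in DESeq2 without male replicate 5. Among the alternatives other than those fits, the count of all called genes ran from 62 with glmTreat to 743 with every gene of a count, beside 245, 326 without the block, 655 and 739 in DESeq2, and 95 to 364 without 1 library.

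The library number was a block in the main fit, but neither it nor the title number was taken to pair single female and male libraries. The correlation of deviations between same-numbered female and male libraries ran from -0.11 to 0.35 for the 5 title numbers and was 0.01, 0.37 and 0.20 for the library numbers. With the block from the title number FST was at 1.38. With library totals the median log2 fold change of all tested genes was -0.10, against 0.01 with TMM factors, and that of the members -0.13 against -0.02. ACVR1, SMAD1 and SMAD2, all near 0, changed sign with library totals or another scaling. Depth limits the ligands most, and 27 of 40 members had more than 3 counts in every library.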
